A study of Mus musculus with 56 samples.

Results

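The nuclear genome encodes most of the protein subunits of the mitochondrial respiratory chain, and the transcripts of 79 such genes were followed here. They are the protein-coding genes of mouse whose symbol marks a subunit or close relative of complex I (Nduf), complex III (Uqcr and Cyc1), complex IV (Cox4 to Cox8) or ATP synthase, complex V (Atp5). Of 82 protein-coding genes with such a symbol, 81 had a row in both count tables, and Cox4i1 and Ndufa13 were left out by the rule because they were counted in the Odc table and had no count in the Dohh table. The 79 genes, of 47937 listed in each table, were 36 of complex I, 9 of complex III, 17 of complex IV and 17 of complex V. Grouping was by symbol, so Ndufa4, whose protein is assigned to complex IV, stood with complex I, and Atp5s, whose product is not a core subunit, with complex V.

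Complexes I and III pass electrons from NADH to cytochrome c, complex IV passes them on to oxygen, and all 3 pump protons across the inner mitochondrial membrane. Complex V uses the proton gradient to make ATP. Each of these complexes also holds subunits encoded by mitochondrial DNA, so that 2 genomes supply its parts, whereas complex II is encoded by the nucleus alone. Activated T cells enlarge their mitochondria and their respiration as they divide.

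The series measured polyadenylated RNA of CD4+ T cells from spleen and lymph node of C57BL/6 mice. Naive cells were activated and polarized in culture for 4 days toward TH1, TH2, TH17 or Treg cells. In the deficient groups a Cre recombinase under the CD4 promoter had acted on floxed alleles of Odc, the gene of ornithine decarboxylase, which makes the polyamine putrescine, or of Dohh, the gene of deoxyhypusine hydroxylase, which completes the polyamine-derived hypusine residue of eIF5A. The wild-type (WT) groups of each table were littermates that carried no Cre. The Odc table held 16 WT libraries (4 per subset) and 15 libraries labelled Odc-/- (4 per subset, 3 in TH2), and the Dohh table held 12 WT libraries and 12 labelled Dohh-/- (3 per subset). The labels describe the replicates as biological, without saying which libraries came from the same animal.

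Libraries of the Dohh table held 6572148 to 12576933 counts each, and Odc libraries 5905374 to 9145214. Tbx21, Gata3 and Foxp3, the lineage factors of TH1, TH2 and Treg cells, each had their highest WT level in the named subset in both tables. Counts per gene cover all exons, including those outside the floxed parts, and do not check the deletions: the Odc1 transcript of the Odc table was called lower in the deficient libraries in TH17 only (log2 fold change -0.40, edgeR adjusted p = 0.0416). The Dohh transcript of the Dohh table was called higher in the deficient libraries of TH1, TH2 and Treg cells (edgeR adjusted p = 0.000132, 0.00167 and 0.000844) and did not pass in TH17 cells (0.189). Cd4 itself averaged 702 to 941 CPM (counts scaled to library size) in the WT groups of the Dohh table and 36.1 to 61.3 CPM in the Dohh-/- groups, so those libraries held little transcript of the marker that defines the labelled cell type. In the Odc table Cd4 averaged 658 to 883 CPM in WT and 347 to 512 CPM in deficient groups. One library stood apart. Dohh-/- TH1 replicate 2 had the lowest scaling factor of its table (0.753), the lowest share of mitochondrial counts (0.47%) and the highest summed level of the 79 genes, and described values of TH1 cells whose fold change moved by over 1.5 times or whose call changed without it are given both ways. In bulk RNA, fewer cells of a type and less RNA per cell cannot be told apart.

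Promoter sequences from RefSeq were examined for the short motifs of factors known for nuclear respiratory genes. A window of the 250 bases before the annotated start was found for 62 of the 79 genes, on either strand, in build GRCm38.p6. The NRF1 motif GCATGCGC was present for 7 of 62 genes (11.3%), against 2.56% of all 27025 genes in the table. The ETS motif CCGGAAG, bound by GABPA among others, was present for 11 (17.7%, against 7.83% of all), the SP motif GGGCGG for 21 (33.9% against 35.4%), the ERR motif AAGGTCA for 5 (8.06% against 4.7%) and the YY1 motif AAGATGGC for 1 (1.61% against 1.83%). Counted over single windows, 2.26%, 6.91%, 32.7%, 4.08% and 1.56% of all 32851 windows held these motifs, in the same order. The windows of 5 genes are shown 5′ to 3′, with every match in capitals, because their genes differ in response: Ndufb6, Uqcr11 and Atp5k were higher in every deficient group, Cox6a1 in 7 of 8 (its call in Dohh-/- TH1 cells was lost without replicate 2), and Ndufa6 was lower in 5 of 8. Where an annotated transcript starts earlier than the RefSeq start, the window was shortened so that at most 30 bases of it are transcribed. They lie on the minus strand at chr4:40279422-40279671 (Ndufb6), chr10:80406822-80407071 (Uqcr11), chr5:115348959-115349208 (Cox6a1), chr5:108434419-108434649 (Atp5k) and chr15:82354293-82354541 (Ndufa6).
Ndufb6: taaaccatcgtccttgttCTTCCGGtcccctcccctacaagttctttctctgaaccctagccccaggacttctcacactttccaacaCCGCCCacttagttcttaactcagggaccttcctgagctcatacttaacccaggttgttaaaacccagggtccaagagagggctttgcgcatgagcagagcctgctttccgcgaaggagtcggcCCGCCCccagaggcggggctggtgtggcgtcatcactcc
Uqcr11: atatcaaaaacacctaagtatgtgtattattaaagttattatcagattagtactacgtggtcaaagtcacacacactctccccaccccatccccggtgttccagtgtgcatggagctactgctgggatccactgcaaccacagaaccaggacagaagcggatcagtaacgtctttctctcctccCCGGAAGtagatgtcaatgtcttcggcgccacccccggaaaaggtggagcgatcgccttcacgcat
Cox6a1: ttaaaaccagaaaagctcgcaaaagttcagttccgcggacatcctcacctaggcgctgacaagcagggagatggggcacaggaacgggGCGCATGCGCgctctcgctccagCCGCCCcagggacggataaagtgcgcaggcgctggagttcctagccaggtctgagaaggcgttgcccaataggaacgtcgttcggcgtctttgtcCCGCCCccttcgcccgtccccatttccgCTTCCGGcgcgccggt
Atp5k: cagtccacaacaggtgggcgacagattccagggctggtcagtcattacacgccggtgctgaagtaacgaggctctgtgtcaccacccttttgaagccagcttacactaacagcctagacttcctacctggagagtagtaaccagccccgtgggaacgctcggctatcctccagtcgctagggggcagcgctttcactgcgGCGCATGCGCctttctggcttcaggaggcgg
Ndufa6: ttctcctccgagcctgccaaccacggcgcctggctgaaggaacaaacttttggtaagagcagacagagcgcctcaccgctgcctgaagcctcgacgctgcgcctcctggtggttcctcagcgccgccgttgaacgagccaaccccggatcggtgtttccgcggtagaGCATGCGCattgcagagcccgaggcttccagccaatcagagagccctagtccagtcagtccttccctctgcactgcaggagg
Ndufb6 carried an ETS match and 2 SP matches, and Uqcr11 a single ETS match. Cox6a1 and Atp5k each held overlapping NRF1 matches on both strands, printed as GCGCATGCGC, to which Cox6a1 added an ETS match and 2 SP matches. Ndufa6, whose transcript was lower, also held an NRF1 match. Among the 19 windowed genes that were higher in all 8 comparisons, 1 held the NRF1 motif and 4 the ETS motif. A match describes letters in a window and was not tested as a binding site.

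The question put to these genes was whether loss of Odc or of Dohh changed their transcripts in each subset. More of them rose than fell in each of the 8 comparisons. With 75 genes measurable (Ndufa4l2, Cox7b2, Cox8b and Cox8c were too low to test), Odc deficiency raised 47 in TH1, 41 in TH2, 61 in TH17 and 57 in Treg cells and lowered 7, 9, 2 and 3. Dohh deficiency raised 60, 40, 50 and 38 and lowered 2, 5, 3 and 3 (edgeR's quasi-likelihood test, Benjamini-Hochberg adjusted p under 0.05 over all genes tested). Of all 13839 genes tested in the Odc table, 29.1%, 29.9%, 25.6% and 32.9% were called higher in TH1, TH2, TH17 and Treg cells, and 27.7%, 29.3%, 22.2% and 26.9% lower. Of 13897 in the Dohh table, 25.9%, 23.8%, 27% and 28.4% were called higher and 24.1%, 21.5%, 24.9% and 25% lower.

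The median log2 fold change of the 75 genes was 0.38, 0.36, 0.55 and 0.53 for Odc deficiency in TH1, TH2, TH17 and Treg cells, where the median of all genes lay between -0.002 and 0.07. For Dohh deficiency it was 1.21, 0.70, 0.77 and 0.62, beside a median of all genes between 0.01 and 0.03. Without Dohh-/- TH1 replicate 2 the TH1 values became a median of 0.66, with 49 genes higher and 4 lower. Without Dohh-/- TH17 replicate 3, 32 genes were higher in TH17, and 22 were higher in Treg cells when WT Treg replicate 1 of the Dohh table was left out. With the library of largest effect left out, WT replicate 3 in Dohh TH2 and WT replicate 1 in Odc TH1 and TH2, 29, 37 and 31 genes were higher. Under Odc deficiency few changes passed 2-fold, with 2, 3, 1 and 4 genes higher (all genes 10.2%, 11.5%, 8.35% and 13.9%) and 3, 3, 1 and 3 lower (11.3%, 13.6%, 7.21% and 10.1%). Under Dohh deficiency 47, 20, 29 and 18 genes were higher by over 2-fold (all genes 14.8%, 14.3%, 17.3% and 17.5%) and 2, 3, 1 and 1 lower (14.2%, 11.6%, 14.1% and 15.2%). In TH1 the number past 2-fold in either direction fell from 49 to 20 without replicate 2, and in Dohh Treg cells from 19 to 11 without WT replicate 1. In the Odc table it went from 5 to 10 (TH1) and from 7 to 14 (Treg) without WT replicate 4 and from 2 to 7 (TH17) without deficient replicate 1.

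Higher in all 8 comparisons were 23 genes, against 6.1% of the 12924 genes tested in both tables. They were Ndufa1, Ndufa4, Ndufa5, Ndufa10, Ndufa12, Ndufb6, Ndufb7, Ndufs5, Ndufs6 and Ndufv1 of complex I, Cyc1, Uqcr10, Uqcr11, Uqcrb and Uqcrq of complex III, Cox5a, Cox5b and Cox7b of complex IV, and Atp5a1, Atp5g1, Atp5g3, Atp5j and Atp5k of complex V. All 23 also passed in Dohh-/- TH1 cells without replicate 2. Cox4i2 alone was lower in all 8, against 4.84% of all genes. Of the other tested genes most rose somewhere: 63 in all were higher in at least 1 comparison and lower in none, as were 39% of all genes. Lower in at least 1 and higher in none were 7 genes (Ndufa6, Ndufv3, Uqcrc2, Uqcrh, Cox4i2, Cox6b2 and Cox7a2l), a pattern of 37.7% of all genes. Ndufb11, Ndufs3 and Cox7a1 moved both ways (18.7% of all genes), and Atp5d and Atp5s passed in no comparison (4.53%).

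**Figure D1:**
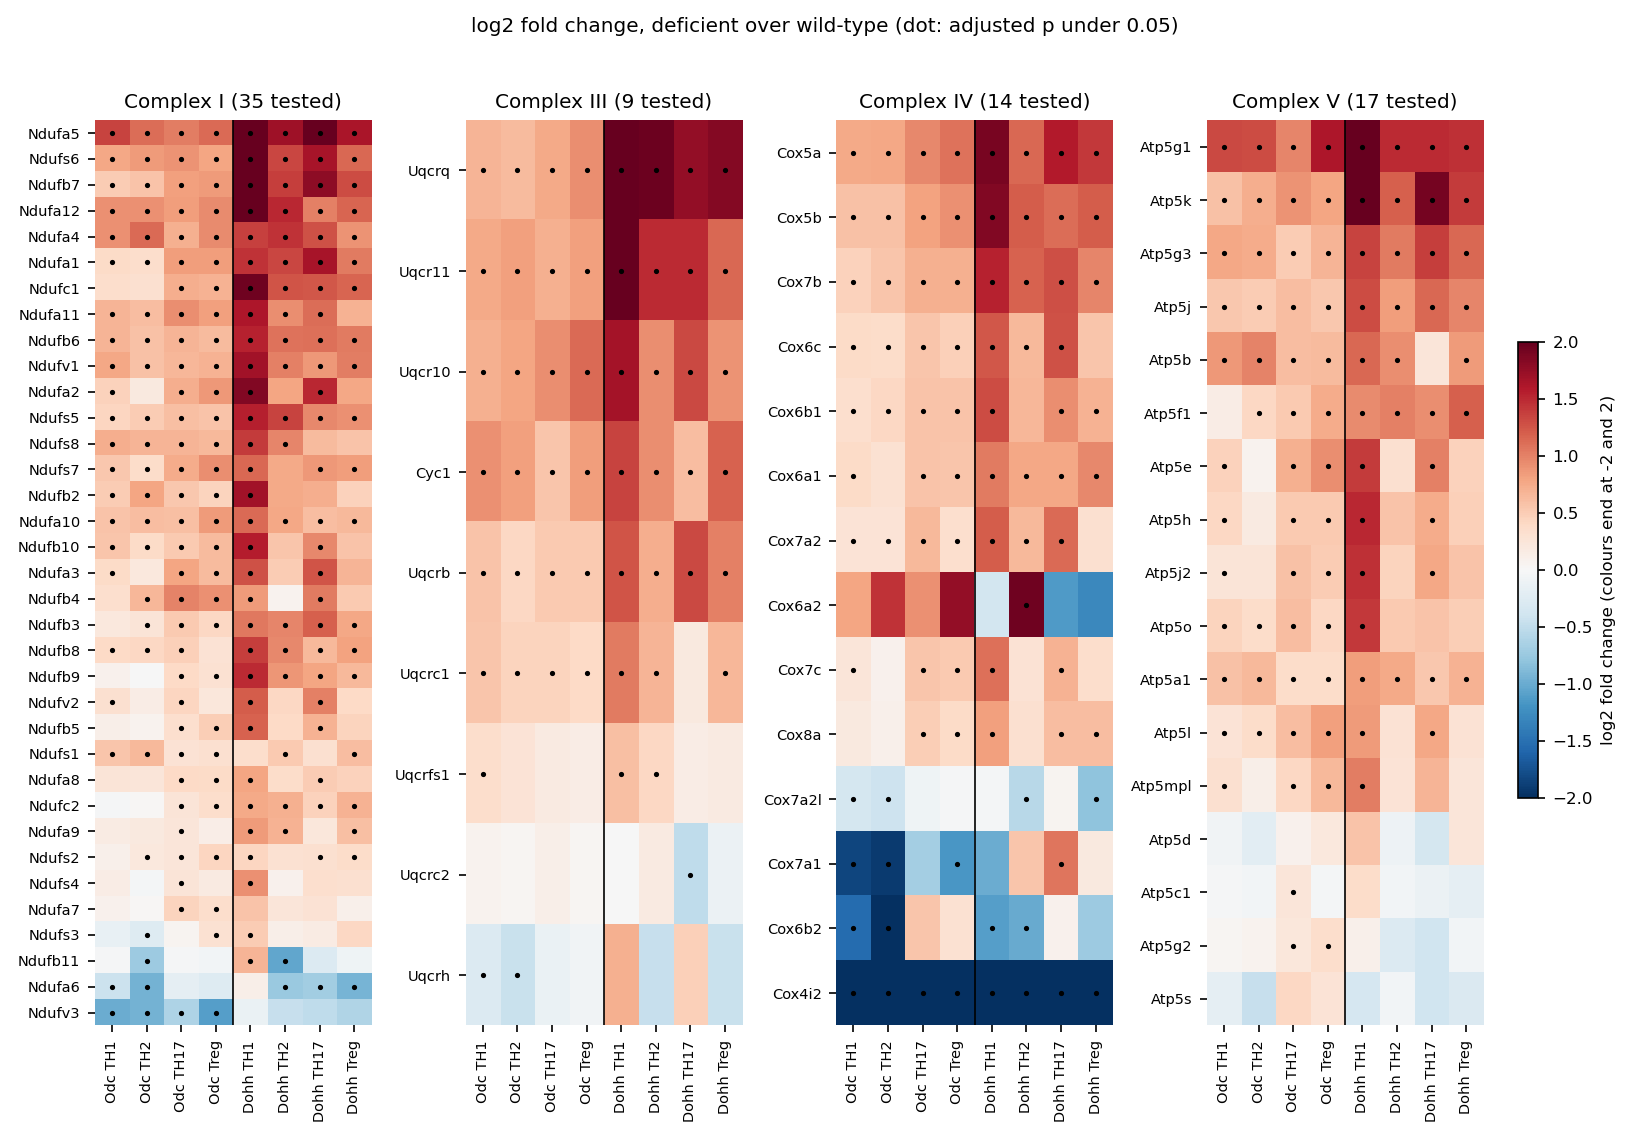
Colour gives the log2 fold change of each of the 75 tested genes (rows, by complex) in the 8 comparisons of deficient with WT cells (columns), red for higher and blue for lower in deficient cells, with colours ending at -2 and 2, and a dot marks an adjusted p under 0.05. Most rows are red throughout, the Dohh TH1 column is the darkest, and Cox4i2 is blue in all 8 columns.

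The summed level of the 79 genes rose from a mean of 9094 CPM (SD 870, n = 4) in WT to 11964 CPM (SD 805, n = 4) in Odc-/- TH1 cells, a ratio of 1.32. The ratio of means was 1.31 in TH2, 1.38 in TH17 and 1.40 in Treg cells. In the Dohh table the sum rose from 8568 to 18447 CPM in TH1, a ratio of 2.15, with deficient libraries at 15304, 28991 and 11045 CPM, and the ratio was 1.54 without replicate 2. It rose 1.48-fold in TH2, 1.57-fold in TH17 and 1.51-fold in Treg cells. WT and deficient libraries did not overlap in the sum in any of the 8 comparisons. Taken complex by complex they overlapped only for complex I in TH2 cells of the Odc table, where WT libraries reached 2877 CPM and the lowest deficient library had 2853 CPM. Complex V had the largest summed level of the 4 complexes in every group mean.

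**Figure D2:**
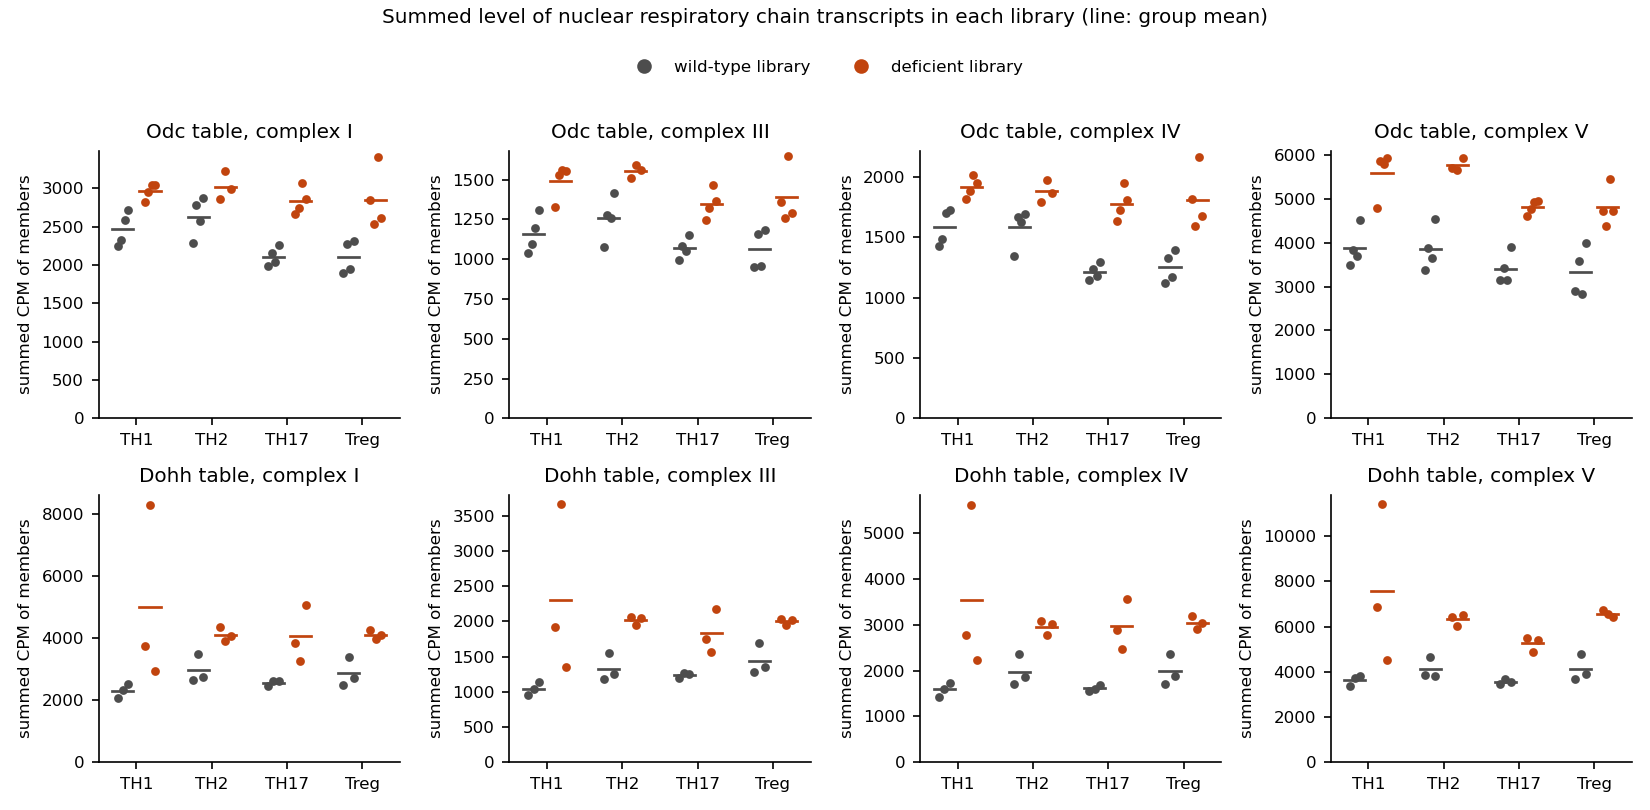
Each point is the summed CPM of a complex's genes in 1 library (vertical axis from 0) by subset, with WT in grey and deficient in orange and a line at each group mean, for the Odc table (top) and the Dohh table (bottom). Deficient libraries lie above WT libraries in every panel except complex I in Odc TH2, where they overlap, and Dohh-/- TH1 replicate 2 lies far above its group.

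In WT cells these transcripts spanned a wide range. Per kilobase of exon, taken over all annotated transcripts of a gene, Cox8a, the smallest ubiquitous subunit of complex IV, was highest in both tables, with 318 CPM per kilobase in the Odc table (228 to 433 over libraries) and 420 in the Dohh table (328 to 629). Atp5b, Cox6b1, Cox6a1 and Atp5a1 followed in the Odc table with 231, 228, 226 and 220 CPM per kilobase, and their ranges over libraries overlapped. At the other end were genes that hardly passed detection. Ndufa4l2, a relative of Ndufa4, had 0.047 and 0.102 CPM per kilobase in Odc and Dohh tables, and Cox7b2 had counts in no WT library of the first and 0.023 CPM per kilobase in the second. Cox6a2, the heart and muscle isoform of a complex IV subunit and the lowest gene that was tested, had 0.67 and 0.63 CPM per kilobase. The muscle isoform Cox8b and the testis isoform Cox8c had no count in any library. A count of 0 allows up to 0.226 to 0.499 CPM, depending on the library (3 counts). WT levels differed between the 4 subsets for 44 of 75 genes in the Odc table, where 71.1% of all genes differed, and for 4 in the Dohh table (Cox6b2, Ndufa6, Ndufb11 and Uqcrfs1), where 40.1% did. That count of 4 was 2 when all libraries numbered 1, or all numbered 2, were left out.

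Complex I receives electrons from NADH through its flavin-bearing arm. Of its 35 tested genes Odc deficiency raised 20, 20, 31 and 28 in TH1, TH2, TH17 and Treg cells and lowered 2, 4, 1 and 1, with median log2 fold changes of 0.38, 0.35, 0.55 and 0.56. Dohh deficiency raised 31, 19, 25 and 19 and lowered 0, 2, 1 and 1, with medians of 1.27, 0.76, 0.87 and 0.65, and the TH1 median was 0.66 without replicate 2. Without WT replicate 1 the median of Odc TH2 was 0.23.

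Ndufa5, a small accessory subunit of complex I (chr6:24518666-24528013, minus strand, GENCODE M21 on GRCm38), had the largest mean rise over subsets in the Dohh table and ranked among the 3 largest in the Odc table. In TH1 cells of the Odc table WT libraries had 10.4, 13.5, 13.8 and 21.8 CPM and deficient libraries 22.2, 44.8, 41.9 and 41.8 CPM, a log2 fold change of 1.34 (SE 0.23, adjusted p = 3.22e-05). In TH1 cells of the Dohh table WT libraries had 8.2, 10.1 and 14.7 CPM and deficient libraries 53.7, 171 and 34.2 CPM, a log2 fold change of 2.97 (SE 0.49, adjusted p = 6.92e-05). Without deficient replicate 2, the library at 171 CPM, it was 2.01 (SE 0.38, adjusted p = 0.000412). The groups did not overlap in either table or in the other 3 subsets, although the highest WT library of the Odc table nearly met the lowest deficient library. In TH17 cells of the Dohh table the libraries rose from 11.5, 12.7 and 10.2 CPM to 43.6, 44.4 and 123 CPM (log2 fold change 2.61, SE 0.49, adjusted p = 0.000212), and the change was 1.96 without deficient replicate 3, the library at 123 CPM (adjusted p = 0.0018).

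Ndufv1, which holds the flavin site that takes electrons from NADH, rose in every comparison. Its log2 fold change lay between 0.58 and 0.77 under Odc deficiency and between 0.87 and 1.68 under Dohh deficiency, where the highest value, in TH1 cells, was 0.96 without replicate 2. In Odc-/- TH17 cells WT libraries at 68.8, 77.9, 76.7 and 92.9 CPM gave way to 119, 129, 126 and 125 CPM, with no overlap. Ndufs1, the largest iron-sulfur subunit, rose in 4 of 4 subsets of the Odc table and in 2 of 4 of the Dohh table. Its levels of 62, 73, 54.3 and 76.2 CPM in WT TH1 cells became 79.6, 105, 102 and 102 CPM in Odc-/- TH1 cells (log2 fold change 0.55, SE 0.11, adjusted p = 0.000142). In TH1 cells of the Dohh table Ndufs1 overlapped between groups, with 59, 52.8 and 64.6 CPM in WT and 87.3, 57.9 and 79.1 CPM in deficient libraries, and did not pass (adjusted p = 0.0662). Without replicate 2, the deficient library at 57.9 CPM, its log2 fold change was 0.50 and passed (adjusted p = 0.011).

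Ndufa1, an X-linked accessory subunit needed for assembly, rose by 0.35 to 0.84 under Odc deficiency and by 1.03 to 1.66 under Dohh deficiency on the log2 scale. In TH17 cells WT libraries of the Odc table had 47.1, 48.2, 43.5 and 55.3 CPM and deficient ones 86.2, 78.8, 90 and 93.3 CPM. WT libraries of the Dohh table had 38.5, 41.4 and 41.7 CPM and deficient ones 132, 110 and 141 CPM. Groups were well apart in both. Ndufb6 and Ndufa4 also rose in all 8 comparisons, by up to 0.69 and 1.13 under Odc deficiency and up to 1.54 and 1.44 under Dohh deficiency. For Ndufb6, 39% of the exonic bases lie opposite another gene, and the strand setting of the counting was not given in the sources used here.

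The complex I genes that fell were few. Ndufv3, an accessory subunit of the NADH-binding arm (chr17:31520115-31531331, plus strand), was lower in all 4 subsets of the Odc table. In Treg cells it went from 148, 175, 172 and 125 CPM to 85.1, 55.2, 87.4 and 60 CPM (log2 fold change -1.11, SE 0.20, adjusted p = 3.74e-05). In TH1 cells it went from 209, 210, 274 and 215 CPM to 171, 78.6, 102 and 105 CPM. Neither pair of groups overlapped. In the Dohh table it passed in no subset, with log2 fold changes from -0.14 to -0.61 and an adjusted p of 0.116 or more, and the groups overlapped in TH1, TH2 and Treg cells. Without deficient replicate 2 the change in TH1 cells was -0.73 and passed (adjusted p = 0.0475). The difference of the 2 deficiencies was tested for every gene, as described with the comparison between tables. For Ndufv3 it was -0.85, -0.48, -0.10 and -0.50 (Odc minus Dohh) in TH1, TH2, TH17 and Treg cells. With all libraries it passed in no subset.

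Ndufa6, a LYR-motif subunit that binds the acyl carrier protein in complex I, fell in TH1 and TH2 cells of the Odc table and in TH2, TH17 and Treg cells of the Dohh table. In Treg cells of the Dohh table it went from 159, 213 and 162 CPM to 113, 88.9 and 77.9 CPM, without overlap (log2 fold change -0.93, SE 0.24, adjusted p = 0.00265). In TH1 cells of the Odc table it overlapped, and that call was lost without WT replicate 3 or deficient replicate 2. Ndufb11, an X-linked membrane-arm subunit, fell in TH2 cells of both tables. WT TH2 libraries of the Odc table had 161, 193, 181 and 124 CPM and deficient ones 101, 103 and 94 CPM (log2 fold change -0.73, SE 0.11, adjusted p = 7.38e-06). WT TH2 libraries of the Dohh table had 249, 328 and 256 CPM and deficient ones 160, 123 and 121 CPM (log2 fold change -1.04, SE 0.24, adjusted p = 0.00127). The groups did not overlap in TH2 of either table and overlapped in the other 3 subsets of both. In TH1 cells of the Dohh table Ndufb11 was called higher (log2 fold change 0.68, adjusted p = 0.0202), a call lost without replicate 2, when the change was 0.20. Of the exonic bases of Ndufb11, 12.9% lie opposite Rbm10.

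Complex III hands electrons from ubiquinol to cytochrome c. Of its 9 genes Odc deficiency raised 7, 6, 6 and 6 in TH1, TH2, TH17 and Treg cells and lowered 1, 1, 0 and 0, with medians of 0.57, 0.44, 0.52 and 0.53. Dohh deficiency raised 7, 7, 5 and 6 and lowered 1, in TH17, with medians of 1.26, 0.73, 0.61 and 0.90, and 0.90 in TH1 without replicate 2.

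Uqcrq, a small subunit at the ubiquinone-binding side (chr11:53427922-53430831, minus strand), was among the 3 genes with the largest mean rise in the Dohh table. In TH2 cells of that table it went from 69.3, 123 and 77.2 CPM to 398, 328 and 324 CPM (log2 fold change 1.96, SE 0.41, adjusted p = 0.00073). In TH2 cells of the Odc table it went from 81.7, 118, 107 and 146 CPM to 152, 202 and 169 CPM (log2 fold change 0.63, SE 0.21, adjusted p = 0.0129). Both pairs of groups were apart, the second narrowly, and the Odc call was lost without WT replicate 1 or deficient replicate 3. Cyc1, the cytochrome c1 that passes electrons to cytochrome c, rose by 0.55 to 0.92 under Odc deficiency and by 0.61 to 1.35 under Dohh deficiency. In Odc-/- Treg cells it went from 77.1, 92.6, 79.2 and 120 CPM to 161, 149, 195 and 152 CPM, with no overlap.

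The core proteins of complex III did not move alike. Uqcrc1 rose in all 4 subsets of the Odc table, by 0.39 to 0.55, and in TH1, TH2 and Treg cells of the Dohh table, by 0.66 to 1.04. Uqcrc2, its partner in the core, passed in a single comparison. It had 208, 217 and 204 CPM in WT and 179, 172 and 88.8 CPM in Dohh-/- TH17 cells (log2 fold change -0.51, SE 0.18, adjusted p = 0.0229). Replicate 3 was the low library, and without it the change was -0.24 and did not pass. Uqcrh, the hinge protein of cytochrome c1, fell in TH1 and TH2 cells of the Odc table. In TH2 cells it went from 246, 295, 304 and 261 CPM to 192, 219 and 201 CPM, without overlap (log2 fold change -0.44, SE 0.12, adjusted p = 0.00201).

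Complex IV reduces oxygen. Of its 14 tested genes Odc deficiency raised 8, 6, 9 and 9 in TH1, TH2, TH17 and Treg cells and lowered 4, 4, 1 and 2, with medians of 0.31, 0.29, 0.56 and 0.50. Dohh deficiency raised 9, 7, 10 and 6 and lowered 2, 3, 1 and 2, with medians of 1.07, 0.65, 0.85 and 0.46, and 0.575 in TH1 without replicate 2. Without WT replicate 1 the medians of Odc TH2 and Dohh Treg cells were 0.16 and 0.28.

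Cox5b, a zinc-binding subunit on the matrix side (chr1:36691449-36693681, plus strand), rose in every comparison. In Odc-/- Treg cells it went from 77.9, 105, 88.6 and 131 CPM to 188, 160, 239 and 169 CPM (log2 fold change 0.91, SE 0.15, adjusted p = 1.52e-05). In Dohh-/- Treg cells it went from 127, 183 and 164 CPM to 412, 386 and 301 CPM (log2 fold change 1.21, SE 0.29, adjusted p = 0.00148). The groups did not overlap in any of the 8 comparisons. Cox5a, another subunit of complex IV, rose by 0.76 to 1.08 under Odc deficiency. Under Dohh deficiency it rose by 1.15 to 1.90, the last in TH1 cells, where it was 1.29 without replicate 2. In TH17 cells of the Dohh table it went from 121, 124 and 137 CPM to 317, 257 and 578 CPM, again apart. Neither gene lost a call under any setting tried.

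Cox4i2, the hypoxia-inducible isoform of subunit 4 (chr2:152754173-152765037, plus strand), was the only gene lower in all 8 comparisons, and its calls held under every setting in which it was tested (a mean count of at least 50 removed it). In TH2 cells of the Dohh table it had 12.8, 13.7 and 11.3 CPM in WT and 2.83, 0.713 and 0.53 CPM in deficient libraries (log2 fold change -3.21, SE 0.45, adjusted p = 1.1e-05), or -4.35 without deficient replicate 1. In TH2 cells of the Odc table it had 5.26, 8.14, 7.22 and 3.06 CPM in WT and 0.265, 0.51 and 0.517 CPM in deficient libraries (log2 fold change -3.73, SE 0.78, adjusted p = 0.000216). Groups were apart in both. In TH1 cells of the Odc table WT libraries had 3.32, 2.99, 7.26 and 1.04 CPM and deficient ones 1.06, 0, 0 and 0 CPM, so that the lowest WT library met the highest deficient one, and the size of that fold change depends on the prior count. The libraries with no count allow up to 0.397 to 0.422 CPM. The level of Cox4i2 was low throughout, and its ubiquitous partner Cox4i1 was left out by the rule.

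Cox6b2, the testis isoform of a subunit that faces cytochrome c, was expressed by subset. WT TH1 libraries of the Odc table had 31.8, 24.6, 46.2 and 16.9 CPM and WT TH17 libraries 3.94, 4.92, 4.18 and 1.86 CPM, a log2 difference of -3.00. In the Dohh table the difference of WT TH17 from WT TH1 was -1.77, and the 4 WT groups differed in both tables (adjusted p = 7.07e-09 and 1.26e-06). Deficiency lowered Cox6b2 in TH1 and TH2 cells of both tables. In Treg cells of the Dohh table, where its WT level was low, it was also lower without overlap but did not pass. In TH2 cells of the Odc table it went from 30.6, 33.5, 37.3 and 21.7 CPM to 9.54, 6.24 and 6.33 CPM (log2 fold change -2.06, SE 0.38, adjusted p = 6.08e-05). In TH2 cells of the Dohh table it went from 28.7, 37.2 and 40.5 CPM to 20.4, 17.6 and 14.8 CPM (log2 fold change -1.01, SE 0.28, adjusted p = 0.00655). TH1 cells showed the same direction in both tables without overlap, while in TH17 cells groups overlapped in both.

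Cox7a1, the muscle isoform of subunit 7a, fell in TH1, TH2 and Treg cells of the Odc table. In TH1 cells it went from 6.21, 7.11, 6.68 and 6.37 CPM to 5.13, 0.926, 0.563 and 0.84 CPM, and deficient replicate 1 was close to WT (log2 fold change -1.84, SE 0.41, adjusted p = 0.000515), or -3.07 without that library. In TH17 cells of the Dohh table it rose from 4.12, 2.83 and 3.58 CPM to 8.32, 5.79 and 8.16 CPM (log2 fold change 1.07, SE 0.42, adjusted p = 0.0365), a call lost when any of 5 of the 6 libraries was left out. Cox7a2l has been described as a factor for supercomplexes of complexes III and IV, which were not measured here. It fell in TH1 and TH2 cells of the Odc table and in TH2 and Treg cells of the Dohh table. In Treg cells of the Dohh table it went from 309, 398 and 329 CPM to 220, 192 and 181 CPM, without overlap (log2 fold change -0.80, SE 0.22, adjusted p = 0.00364). Cox6a2 passed only in TH2 cells of the Dohh table (0.659, 1.16 and 0.224 CPM in WT, 3.25, 3.46 and 1.27 CPM in deficient libraries), and not without WT replicate 3.

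Complex V, the ATP synthase, was the complex with no gene called lower in any comparison. Of its 17 genes Odc deficiency raised 12, 9, 15 and 14 in TH1, TH2, TH17 and Treg cells, with medians of 0.42, 0.36, 0.53 and 0.53. Dohh deficiency raised 13, 7, 10 and 7, with medians of 1.155, 0.52, 0.74 and 0.49, and 0.66 in TH1 without replicate 2. The Dohh Treg median was 0.32 without WT replicate 1.

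Atp5g1, which encodes a copy of the c subunit of the membrane ring (chr11:96068852-96075670, minus strand), had the largest rises of this complex under Odc deficiency. In Treg cells it went from 39.5, 49.7, 44.4 and 82.3 CPM to 152, 150, 214 and 147 CPM (log2 fold change 1.62, SE 0.21, adjusted p = 6.05e-07). In Treg cells of the Dohh table it went from 65, 94.1 and 75.9 CPM to 200, 223 and 223 CPM (log2 fold change 1.46, SE 0.34, adjusted p = 0.00127). The groups were apart in all 8 comparisons and no setting tried removed a call. Atp5k, the small subunit e of the membrane part, rose by 0.59 to 0.89 under Odc deficiency and by 1.20 to 2.46 under Dohh deficiency, the last in TH1 cells, where it was 1.52 without replicate 2. In TH17 cells of the Dohh table it went from 49.6, 45.9 and 56.7 CPM to 159, 129 and 284 CPM (log2 fold change 1.91, SE 0.42, adjusted p = 0.000876).

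Atp5b and Atp5a1, which form the catalytic head of complex V, had the highest mean CPM of the 79 genes in each table. Atp5b, the catalytic beta subunit, went from 863, 942, 882 and 1381 CPM in WT to 1990, 1941 and 2139 CPM in Odc-/- TH2 cells, without overlap (log2 fold change 0.99, SE 0.17, adjusted p = 2.31e-05). In TH17 cells of the Dohh table its groups overlapped, at 756, 786 and 730 CPM against 1165, 993 and 530 CPM, and it did not pass (log2 fold change 0.24, adjusted p = 0.431). Its partner Atp5a1, the alpha subunit, rose in all 8 comparisons, by 0.37 to 0.65 under Odc deficiency and 0.55 to 0.83 under Dohh deficiency. Atp5c1, the central-stalk gamma subunit that both of them surround, passed only in TH17 cells of the Odc table, by 0.24.

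**Figure D3:**
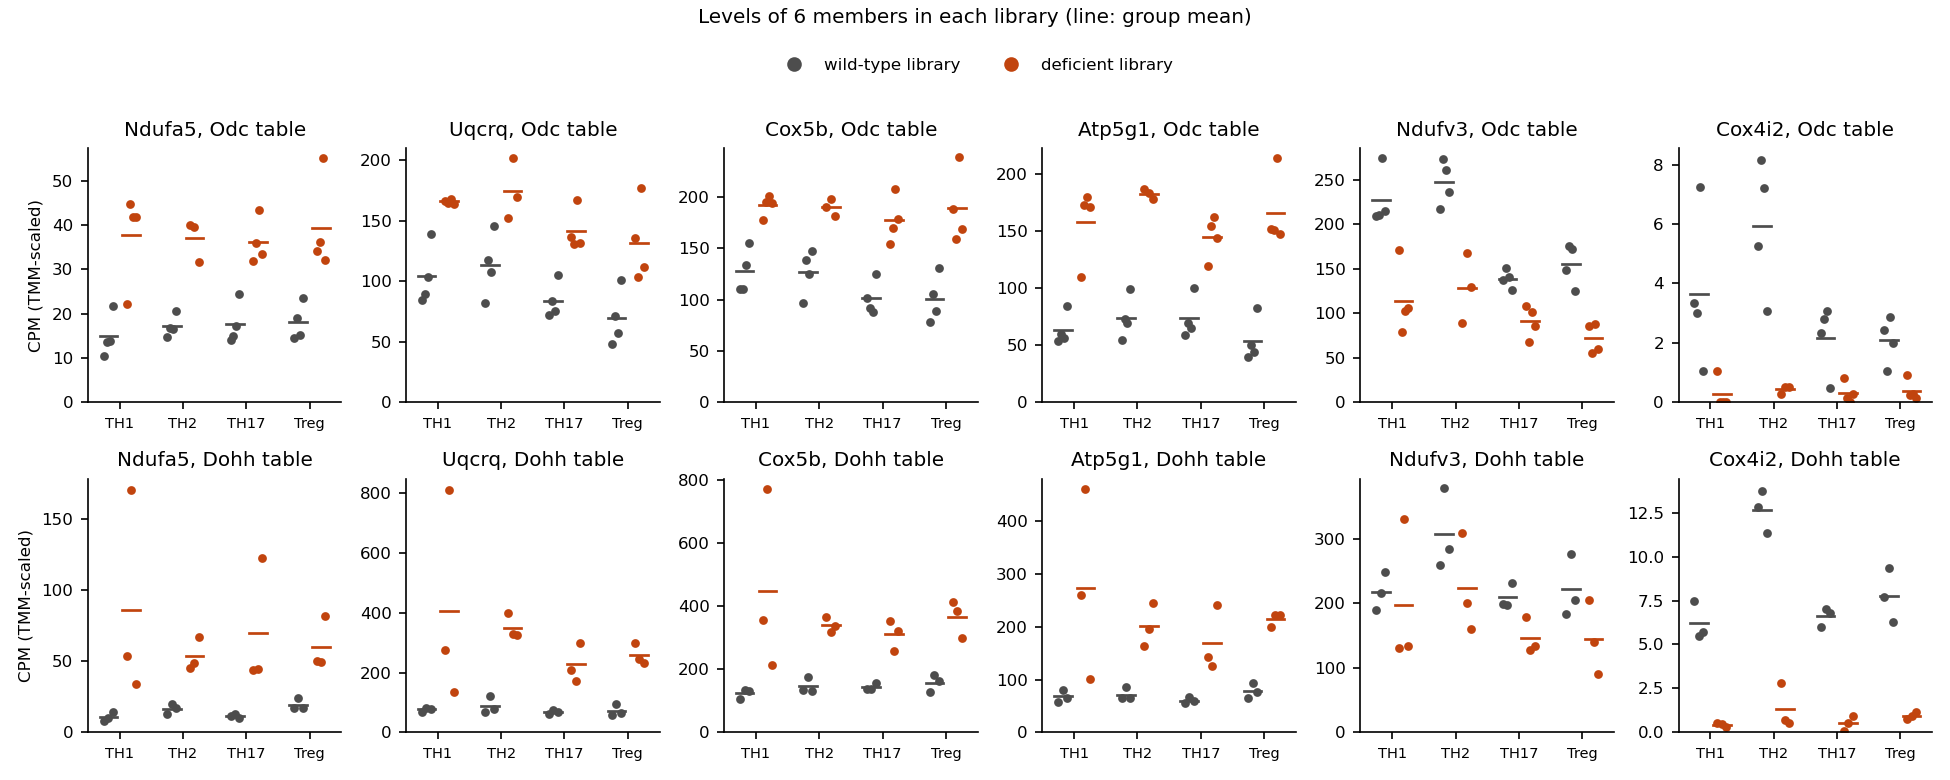
Points give the CPM of 6 genes in each library by subset (vertical axes from 0), with WT in grey, deficient in orange and a line at each group mean, for the Odc table (top) and the Dohh table (bottom). Ndufa5, Uqcrq, Cox5b and Atp5g1 are higher and Cox4i2 is lower in the deficient groups of both tables, while Ndufv3 is lower in the Odc table and overlaps in 3 of 4 subsets of the Dohh table.

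Whether the effect of a deficiency differed between subsets was tested as an interaction. Under Odc deficiency it differed for 11 of 75 genes, where 34.8% of all genes differed: Ndufa1, Ndufa3, Ndufa6, Ndufb5, Ndufb11, Ndufs3, Cox6b2, Cox7c, Atp5e, Atp5f1 and Atp5l. The count was 3 when all libraries numbered 2 were left out, 5 without those numbered 3 or 4 and 10 without those numbered 1. With a term for each replicate number within a genotype 34 genes of the Odc table and 2 of the Dohh table differed, where 52.9% and 19% of all genes did. Cox6b2 had the lowest adjusted p (0.000365), with a fall in TH1 and TH2 and log2 fold changes of 0.55 and 0.30 that did not pass in TH17 and Treg cells. Ndufb11 followed (adjusted p = 0.00116) and then Ndufs3, an iron-sulfur arm subunit (adjusted p = 0.00247), which fell by 0.25 in TH2 and rose by 0.31 in Treg cells on the log2 scale. Under Dohh deficiency only Ndufb11 differed between subsets (adjusted p = 0.00613), against 17.9% of all genes. The number that passed was 2 without Dohh-/- TH1 replicate 2, 0 when all libraries numbered 1 or 2 were left out and 5 without those numbered 3. At an unadjusted p under 0.05 there were 8 of the 75 genes. Shares of all genes were not counted at that threshold or with libraries left out.

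The effects of both deficiencies were compared in each subset as a difference of within-table differences, since each table has its own WT libraries. In TH1 cells 41 of 75 genes differed, all with the higher value in the Dohh table, where 10.5% of all genes had the higher value in the Dohh table and 10.8% in the Odc table. Without Dohh-/- TH1 replicate 2 the number was 6, and 10, 18 and 5 genes differed in TH2, TH17 and Treg cells. Shares of all genes were not counted without that library, so these numbers cannot be set against them. Ndufb9, a LYR-motif subunit of complex I, differed most clearly: its log2 fold change was 0.08 under Odc deficiency and 1.5 under Dohh deficiency, a difference of -1.41 (adjusted p = 0.000258), or -0.85 (adjusted p = 0.00682) without that library. In TH2 cells 7 genes differed, all higher in the Dohh table (all genes 9.11%, and 8.95% higher in the Odc table). Ndufa1 was among them, with a difference of -0.99 (adjusted p = 0.0021), as was Cox7a1, with -2.47 (adjusted p = 0.00619). The count in TH2 cells was 2 when all libraries numbered 1 were left out, and that in TH17 cells, 10 with all libraries, was 3 when those numbered 3 were.

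In TH17 cells 10 genes differed, 7 of them higher in the Dohh table (all genes 11.4%) and 3 higher in the Odc table (13.3%), namely Uqcrc2 (difference 0.62), Atp5g2 (0.61) and Atp5s (0.81). Ndufa1 differed there too, by -0.81 (adjusted p = 0.00612), so that it was higher under Dohh than under Odc deficiency in TH1, TH2 and TH17 cells. In Treg cells only Cox7a2l differed, by 0.79 (adjusted p = 0.0105), with 16% of all genes higher in the Odc table and 13.5% higher in the Dohh table. For the other genes a difference was not detected, which does not show that the deficiencies acted alike.

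**Figure D4:**
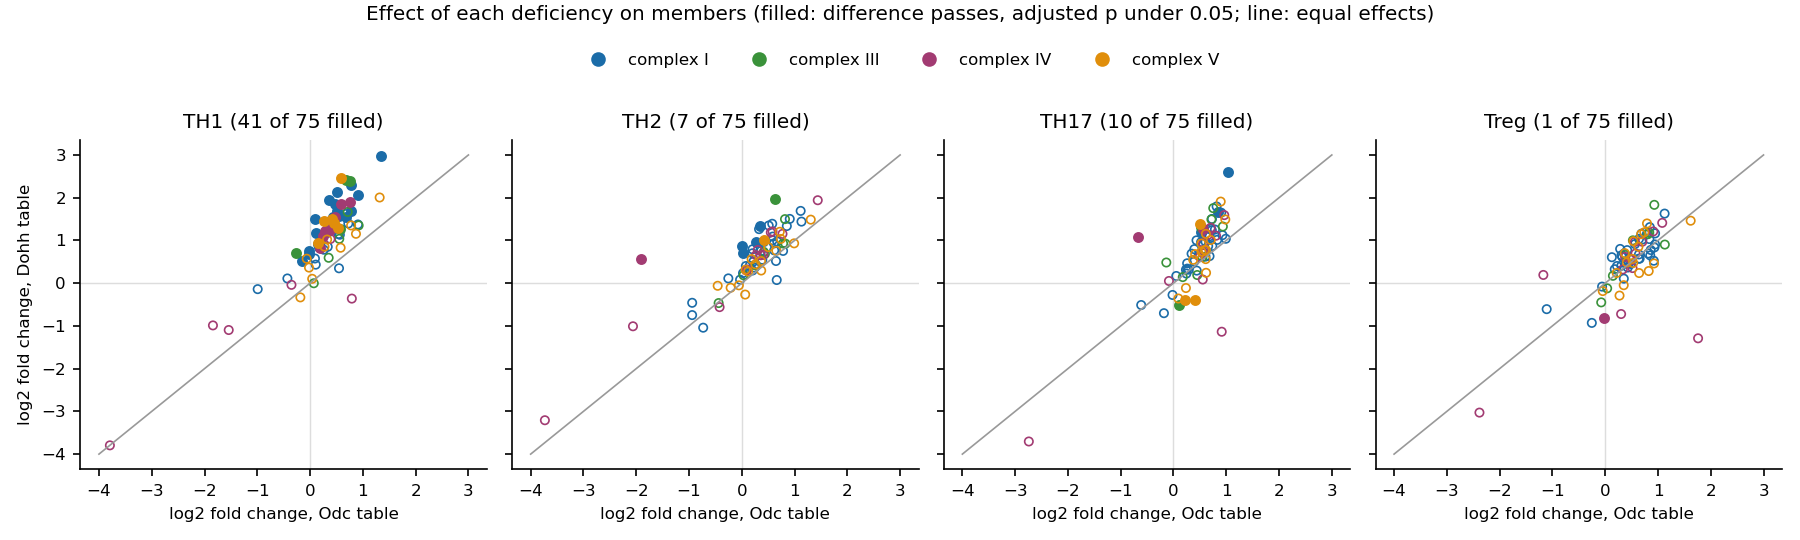
Each point is 1 of 75 genes, with its log2 fold change under Odc deficiency on the horizontal axis and under Dohh deficiency on the vertical axis, coloured by complex and filled where the difference passed an adjusted p under 0.05. In TH1 41 points are filled, all above the diagonal, against 7 in TH2, 10 in TH17 and 1 in Treg.

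Changes went with gene length over all genes, and the 79 genes are short. The shortest decile of all genes by exon length had median log2 fold changes of 0.17, 0.03, 0.345 and 0.46 in TH1, TH2, TH17 and Treg cells of the Odc table and of 0.60, 0.28, 0.43 and 0.12 in the Dohh table. The longest decile had medians of -0.05 to -0.20 under Odc deficiency and of -0.21 to -0.40 under Dohh deficiency. The shortest decile held 30 of the tested members in the Odc fit and 31 in the Dohh fit. Within the length classes that held at least 10 members, their median exceeded that of all genes by 0.11 to 0.36 under Odc deficiency and by 0.05 to 0.77 under Dohh deficiency. With a length trend of each library removed, 36 to 55 members were higher per comparison, against 38 to 61 without that step, and the medians ran from 0.275 to 0.935. Of the members higher as reported, 37 of 47, 41 of 41, 50 of 61 and 44 of 57 were also higher with it in TH1, TH2, TH17 and Treg cells under Odc deficiency, and 54 of 60, 37 of 40, 40 of 50 and 34 of 38 under Dohh deficiency.

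**Figure D5:**
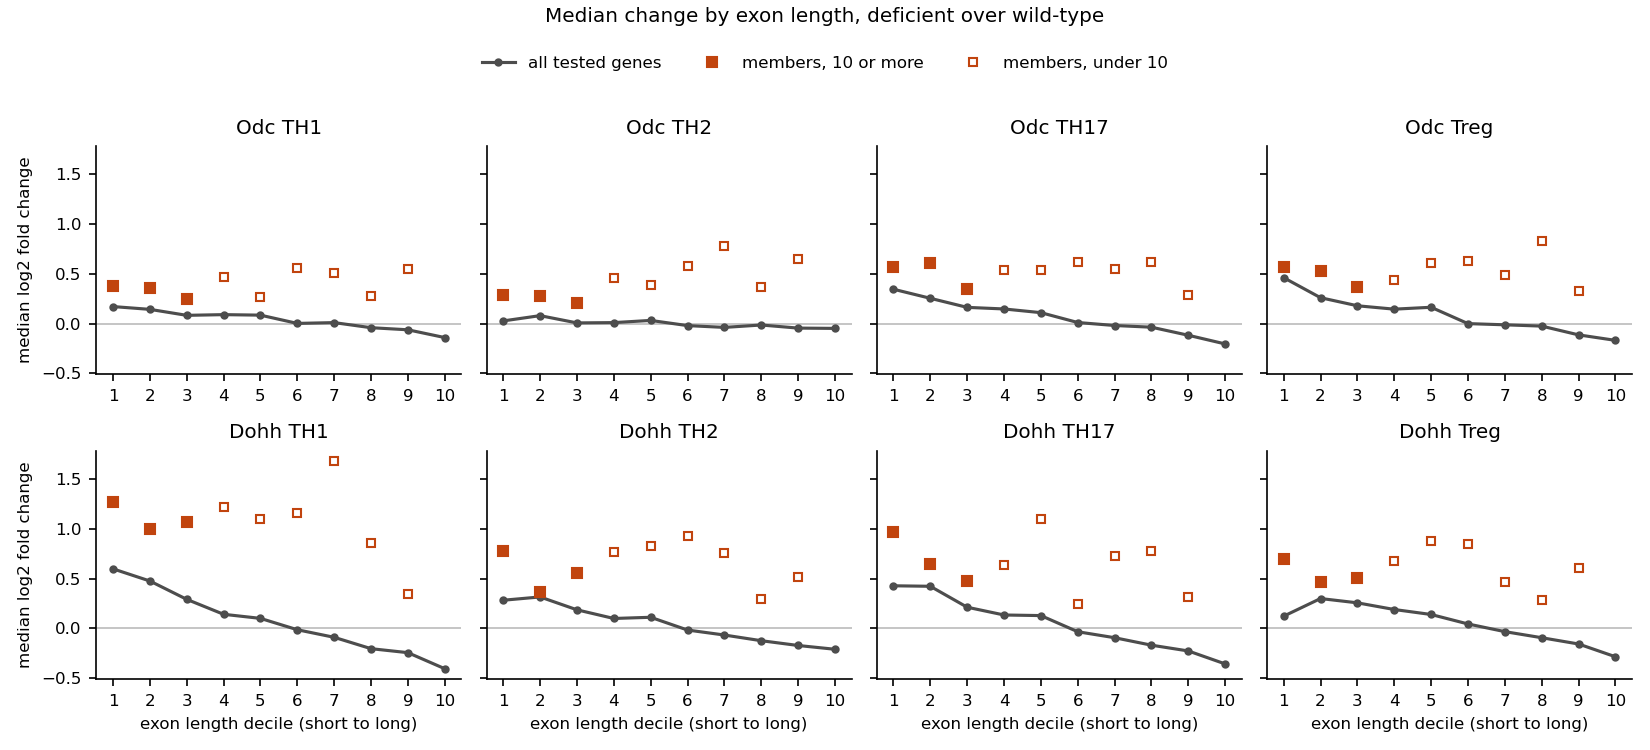
The median log2 fold change (vertical axis) is plotted by exon length decile from short to long (horizontal axis), in grey for all tested genes and as squares for members, filled where a decile held at least 10 of them and open where it held fewer. The grey line falls from short to long genes in most panels, and the filled squares lie above it in all 8.

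Markers of other cells moved with deficiency as well. Summed over a list of CD8 T and NK cell genes, WT and deficient libraries were apart in all 8 comparisons. In the Odc table the sum was 350 to 576 CPM in WT and 760 to 974 CPM in deficient TH1 libraries, and 56.6 to 140 against 257 to 299 CPM in TH2. It was 168 to 229 against 434 to 674 CPM in TH17 and 95.1 to 138 against 662 to 996 CPM in Treg cells. Of the 8 genes of that list 5, 4, 6 and 7 were called higher there. In the Dohh table WT libraries had 69.6 to 358 CPM and deficient libraries 959 to 3952 CPM of them.

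B cell genes were apart in all 4 subsets of the Odc table, at 9.39 to 49.3 against 113 to 453 CPM in TH1, 32.3 to 110 against 338 to 577 CPM in TH2, 4.92 to 9.74 against 14.3 to 30 CPM in TH17 and 3.41 to 6.57 against 25.2 to 215 CPM in Treg cells. In the Dohh table their sum was higher without overlap in TH17 and Treg cells and overlapped in TH1 and TH2. No library there had more than 66.2 CPM. Gene by gene, all 7 tested were called higher in Odc TH1, TH2 and Treg cells, but only 1 of 7 in Odc TH17 cells. Under Dohh deficiency 1, 0, 2 and 3 of 6 were called higher in TH1, TH2, TH17 and Treg cells, and none lower. The median log2 fold change of those 6 genes was -0.65 in Dohh TH17 cells, so the sum there did not describe the typical gene. Pan-T-cell genes were lower without overlap in TH1 and TH2 cells of both tables and in TH17 and Treg cells of the Dohh table. They summed to 3279 to 4334 CPM in WT against 1457 to 3059 CPM in Dohh-/- libraries, and to 2482 to 4298 CPM in WT against 1963 to 3753 CPM in Odc-/- libraries.

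Myeloid genes summed to 586 to 11793 CPM in Dohh-/- TH17 libraries against 39.2 to 41.3 CPM in WT, and to 358 to 4891 CPM in Dohh-/- Treg libraries against 28.4 to 30.6 CPM. In Odc-/- Treg libraries they summed to 102 to 787 CPM against 22.4 to 47.6 CPM, and in Odc-/- TH17 libraries to 50.2 to 612 CPM against 20.7 to 51.8 CPM, overlapping narrowly. In Dohh-/- TH1 and TH2 cells they reached 238 and 763 CPM in the highest library, and the lowest lay within or under the WT range of 23.3 to 24.1 and 21 to 29.9 CPM. In TH1 and TH2 cells of the Odc table the groups overlapped, with no library above 25.4 CPM. Summed basophil and mast cell genes were higher without overlap in Odc TH17 and Treg cells and in Dohh TH1, TH2 and TH17 cells. They reached 470 and 1316 CPM in deficient libraries of the Odc and Dohh tables. The sums overlapped in Odc TH1, Odc TH2 and Dohh Treg cells, although most single genes were called higher there. Of the genes tested, 7 of 9 were higher in Odc TH1 cells and 7 of 9, with 1 lower, in Odc TH2 cells. In Dohh Treg cells 9 of 10 were higher and 1 lower. The median sum fell from 243 to 90.3 CPM in Odc TH2 cells, so it did not describe the typical gene. Erythroid genes were apart in all 4 subsets of the Dohh table, where they reached 1.82 CPM in WT and 67.2 CPM in deficient libraries. The part of other cells in the changes of the respiratory chain genes was not tested.

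Genes that work with the 79 moved as follows, and their counts stand beside 25.6% to 32.9% of all genes called higher per subset under Odc deficiency and 23.8% to 28.4% under Dohh deficiency. Cycs, the cytochrome c that carries electrons from complex III to complex IV, rose in all 8 comparisons, from 54.6 CPM (SD 17, n = 4) to 130 CPM (SD 25.4, n = 4) in TH1 cells of the Odc table and from 39.6 CPM (SD 8.9, n = 3) to 197 CPM (SD 76.1, n = 3) in TH1 cells of the Dohh table, where the deficient mean was 156 CPM without replicate 2. Ndufab1, the acyl carrier protein of complex I, also rose in all 8, by 0.52 to 0.76 and by 0.53 to 0.98 on the log2 scale. Of the 4 complex II subunit genes 2 to 3 rose in each comparison, Sdhb in all 8. Sdhc fell in TH2 cells of the Odc table, by 0.25.

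Of 17 complex I assembly genes 9, 10, 10 and 11 rose under Odc deficiency and 12, 10, 10 and 10 under Dohh deficiency, and 1 fell in each comparison. Ndufaf4, which acts early in complex I assembly, rose by 0.92 to 2.11 and by 1.33 to 1.98, and Ndufaf2, a late-stage assembly factor, by 1.28 to 1.85 and by 1.59 to 1.95. Of 24 complex IV assembly genes tested under Odc deficiency 12, 8, 9 and 13 rose and 3, 4, 2 and 1 fell, and of 22 under Dohh deficiency 11, 5, 6 and 7 rose and 1, 1, 3 and 2 fell. The shares higher in TH2 cells, 33.3% and 22.7%, and in Dohh-/- TH17 and Treg cells, 27.3% and 31.8%, were near the 29.9%, 23.8%, 27% and 28.4% of all genes. Of 6 complex III assembly genes 1, 1, 2 and 4 rose under Odc deficiency, with 1 lower in TH2 and in TH17 cells, and 3, 1, 2 and 1 rose under Dohh deficiency. Of 4 complex II assembly genes 3, 1, 2 and 1 rose under Odc and 1, 1, 2 and 0 under Dohh deficiency, where 1 fell in Treg cells. Of 5 genes for assembly and inhibition of complex V 3, 2, 3 and 4 rose under Odc and 3, 2, 1 and 1 under Dohh deficiency, and Atpaf1, a chaperone of the beta subunit, fell in TH1, TH2 and TH17 cells of the Dohh table, by 0.61 to 0.79.

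The mitochondrial partners of these complexes were measured for 8 of 13 messenger RNAs. Of them 5, 6, 5 and 8 rose under Odc deficiency, and 1, 4, 6 and 6 under Dohh deficiency, where 1 fell in TH1 cells. The sum of all 13 was lower in TH1 cells of the Dohh table, without overlap, at 10296 to 12657 CPM in WT and 4562 to 7996 CPM in deficient libraries. Over the 8 tested the median log2 fold change there was 0.22, so the sum did not describe the typical transcript. The sum was higher without overlap in TH1, TH17 and Treg cells of the Odc table and overlapped in the other 4 comparisons. Of 12 genes for regulators of mitochondrial gene expression 7, 8, 3 and 7 rose under Odc deficiency, with 2 lower in TH17 and 3 in Treg cells, and 3, 3, 2 and 5 rose under Dohh deficiency, with 1 lower in TH2 cells. Shares of 25% higher in TH17 cells of the Odc table and in TH1 and TH2 cells of the Dohh table were near those of all genes there (25.6%, 25.9% and 23.8%). Esrra, a nuclear receptor known to activate respiratory genes, rose in all 4 subsets of the Odc table (by 0.34 to 0.85) and in TH2, TH17 and Treg cells of the Dohh table (by 0.45 to 0.64). Tfam, which packages and transcribes mitochondrial DNA, rose in all 4 subsets of the Dohh table (by 0.71 to 0.99) and in TH1 and TH2 cells of the Odc table (by 0.60 and 0.52). Nrf1, the factor whose motif was searched in the promoters, rose in TH1 and TH2 cells of the Odc table and in TH1 and Treg cells of the Dohh table. Gabpa, the DNA-binding part of an ETS factor, rose in TH2 and fell in Treg cells of the Odc table and passed in no comparison of the Dohh table.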

How the data were processed

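RNA sequencing libraries (TruSeq stranded mRNA, HiSeq) were trimmed, aligned and counted by the authors, whose notes name STAR, featureCounts, DESeq2, deepTools and build mm10. The deposited values are raw counts per gene, whole numbers with no normalization, in 2 tables. Chromatin data were not used here, and Odc-/- TH2 replicate 1 was not analysed here. Gene names, coordinates and exon lengths came from GENCODE M21 and promoters from RefSeq. Per table, all 8 groups were fitted with edgeR 4.0.16 (R 4.3.3; TMM factors, filterByExpr, robust quasi-likelihood, Benjamini-Hochberg adjustment over all genes tested at 0.05). CPM are TMM-scaled. Changes are log2, deficient over WT. A fit of both tables gave the differences between deficiencies. The alternatives were DESeq2 1.42.0, RLE factors, no TMM, other filters, 2 groups per fit, a replicate block and each library left out. Another took replicate number within genotype as a random effect (limma 3.58.1), which the labels do not tie to an animal. Added after seeing the data were a length offset and a term for each number within genotype. Also added was leaving Dohh-/- TH1 replicate 2 alone out of the tests between subsets and tables.

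Members, lists, motifs and named genes were chosen with earlier results of these data known. Named genes were core subunits, tissue isoforms, the 3 largest and smallest mean changes per table, the 3 lowest interaction p per table and the 2 lowest p of the difference between tables per subset. Ndufb6, Uqcr11, Ndufa4, Uqcr10, Cox6a1 and Uqcrh were named after their values were seen. On simulated counts, 52.5% of 1.5-fold and 83% of 2-fold changes were recovered in Odc TH2, and 7.07% and 48% in Dohh TH2. There only 99 genes changed 1.5-fold and 100 changed 2-fold, of 12994 (Odc) and 12919 (Dohh) tested. That is a far smaller share than was called in the data, and the adjusted p depends on it, so these rates need not hold for the data. Libraries of a group differed beyond counting noise (chi-square per degree of freedom 2.61 or more). WT and deficient libraries of the same number were not paired by the labels, and p-values measure the spread between libraries. Upper limits for a count of 0 cover counting error only. Processed pseudogenes may share reads with these genes.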

Additional observations from a re-analysis of the deposited data

Results flagged for a closer look

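In groups of 4 libraries, a library was singled out where its gap to the nearest other exceeded Dixon's 95% critical share of the group's range. Of 231 sets examined 25 met this, and chance alone singles out about 1 in 20.

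Most of them came from Odc-/- TH1 replicate 1, which lay apart from the other 3 libraries of its group. Its summed level was 10767 CPM for the 79 genes, 1328 CPM for complex III and 4797 CPM for complex V. It had 79.6 CPM of Ndufs1, 104 CPM of Ndufv1, 125 CPM of Cyc1, 201 CPM of Uqcrc2, 110 CPM of Atp5g1 and 22.2 CPM of Ndufa5, and on the high side 83.8 CPM of Ndufa6, 1.06 CPM of Cox4i2, 4.08 CPM of Cox6a2 and 5.13 CPM of Cox7a1.

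Among WT libraries of the Odc table, TH1 replicate 4 stood out for Uqcrc1 (173 CPM) and Atp5k (69.4 CPM), TH1 replicate 3 for Ndufv3 (274 CPM), TH2 replicate 4 for Atp5b (1381 CPM) and TH17 replicate 4 for Cox7a2l (146 CPM). Odc-/- TH17 replicate 3 stood out for Ndufs7 (80.5 CPM), Uqcrq (167 CPM) and Ndufb9 (90.4 CPM). Among Odc-/- Treg libraries replicate 4 stood out for Uqcrc2 (207 CPM), replicate 3 for Atp5g1 (214 CPM) and replicate 1 for Cox4i2 (0.925 CPM) and Cox6a2 (0.793 CPM).

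By the interaction test of edgeR, effects differed between subsets for 11 genes of the Odc table, and those with the lowest p were flagged. They were Ndufs3 (adjusted p = 0.00247), Ndufb11 (adjusted p = 0.00116) and Cox6b2 (adjusted p = 0.000365). In the Dohh table only Ndufb11 differed by that test (adjusted p = 0.00613). Of the effects that differed between the deficiencies, only those with the 2 lowest p per subset were flagged, where they passed. As log2 differences of Odc minus Dohh, they were Ndufa1 in TH1 (-1.07), TH2 (-0.99) and TH17 (-0.81) and Ndufb9 in TH1 (-1.41). The others were Cox7a1 in TH2 (-2.47), Uqcrc2 in TH17 (0.62) and Cox7a2l in Treg cells (0.79).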

How the results depend on the processing

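Over all settings other than left-out libraries, 280 summary values stayed within their limits and 28 moved. Members higher and their medians kept direction in every comparison, and the length offset gave medians of 0.275 to 0.935, against 0.36 to 1.21 in the fits as reported. It gave 0.378 for the Odc TH17 median, 6 and 7 members lower in Odc TH17 and Treg, 4, 7 and 7 lower in Dohh TH1, TH17 and Treg, and 1, 4, 15 and 17 past 2-fold in Odc TH17, Odc Treg, Dohh TH2 and Dohh TH17. It turned the change of Ndufb9 in Odc Treg from 0.31 to -0.011. Members past 2-fold in Odc TH17 were 2 as reported and 1 with RLE factors, DESeq2, a mean count of at least 50 or 2 groups in the fit. They were 4 with replicate number within genotype as random effect. Members lower became 1 in Odc TH17, Odc Treg and Dohh TH1 with the mean count filter, and 4, 1, 1 and 5 in Odc TH1, Odc TH17, Dohh TH1 and Dohh Treg with 2 groups in the fit, and 5 in Dohh Treg without TMM.

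Labels gave WT and deficient libraries the same replicate numbers. Within a subset, WT and deficient libraries of the same number deviated together (correlation over 0.1) in 6 of 15 pairs of the Odc table and 1 of 12 of the Dohh table. Those of unlike number did so in 9 of 45 and 1 of 24 pairs. With the replicate block, 40 to 61 members were higher. The interaction counts were then 18 and 2 in the Odc and Dohh tables instead of 11 and 1, and 2 genes instead of 1 differed between deficiencies in Treg cells. Shares of all genes were not counted with this block. No call of a named gene was lost under it. Libraries of the same number and genotype deviated together across subsets in 44 of 45 pairs of the Odc table and 28 of 36 of the Dohh table. Those of the same genotype and unlike number did so in 13 of 135 and 10 of 72 pairs. The tests between subsets as reported do not model this. With a replicate block within genotype, 34 and 2 members differed between subsets in their effect (52.9% and 19% of all genes), and 63 and 4 in their WT level (81.5% and 41% of all genes, 44 and 4 members as reported).

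With each library left out in turn, members lower ranged from 4 to 8 in Odc TH1, 1 to 2 in Odc TH17, 2 to 4 in Dohh TH1, 3 to 5 in Dohh TH2, 1 to 4 in Dohh TH17 and 3 to 5 in Dohh Treg. Members past 2-fold ranged from 5 to 10 in Odc TH1, 1 to 7 in Odc TH17, 4 to 14 in Odc Treg, 20 to 57 in Dohh TH1 and 11 to 24 in Dohh Treg. Members higher ranged from 32 to 50 in Dohh TH17 and 22 to 38 in Dohh Treg, and the Dohh TH1 median from 0.657 to 1.481. For tests between subsets and tables all libraries of a replicate number were left out together, or Dohh-/- TH1 replicate 2 alone. Interaction counts then ranged from 3 to 10 (Odc) and 0 to 5 (Dohh), WT subset counts of the Dohh table from 2 to 5, and differences between deficiencies from 2 to 59 in TH1, 2 to 10 in TH2, 3 to 18 in TH17 and 0 to 5 in Treg cells. Of 160 calls of named genes 113 held under every setting. The cause of these shifts was not tested. On counts simulated for Dohh TH2 with few changed genes, 7.07% of 1.5-fold and 48% of 2-fold changes were recovered. The parts of depth, spread, number of libraries and number of changed genes in this were not separated.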
